A study of Sus scrofa with 22 samples.

Results

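The 10 genes described here are the pig genes FADS1, FADS2, FADS6, ELOVL1, ELOVL2, ELOVL4, ELOVL5, ELOVL6, ELOVL7 and MFSD2A, which desaturate or lengthen long-chain fatty acids or carry one of their products into the brain. They were found by symbol among 31907 counted gene identifiers. Each symbol matched 1 identifier, and all 10 passed the filter on low counts, which left 14994 genes. RNA was counted in the cerebellum of newborn piglets that had bile duct ligation (BDL), in which the duct that drains bile from the liver is tied off, or sham surgery (SHAM). The operation was done at day 8 of life and the animals were followed for 3 weeks. The 11 BDL animals were 7 females and 4 males, and the 11 SHAM animals were 5 females and 6 males. The labels give no genotype, strain or litter, and the sources used here do not say whether any animal received a treatment besides the surgery. The question that the series title sets is how obstructive cholestasis alters balance and the lipid composition of the brain.

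Long-chain polyunsaturated fatty acids such as arachidonic acid and docosahexaenoic acid (DHA) are major parts of brain membranes. They come from the diet or are made from shorter essential fatty acids by desaturases, which insert double bonds, and elongases, which add carbon units in the endoplasmic reticulum. Bile acids are needed to absorb dietary fat, so the supply of these fatty acids depends on bile flow. Other elongases of the same family work mainly on saturated and monounsaturated chains, which are abundant in myelin.

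The libraries held between 14811464 and 20046909 gene counts, and the 10 genes had between 149 and 6636 counts per library. Levels are given as CPM, the gene's counts scaled to a common library size with TMM factors. They were not divided by transcript length, so levels are compared between animals and never between genes. Markers of cerebellar neurons were present in every library: GABRA6, a receptor subunit of granule neurons, had 318.5 to 423.3 CPM and CALB1, a calcium-binding protein of Purkinje cells, 286.4 to 495.0 CPM. The 10 measured markers of mature oligodendrocytes, the cells that make myelin, were summarised as their mean log2 CPM. It lay between 6.91 and 8.99 in BDL animals and between 7.34 and 8.81 in SHAM animals, and no measured marker of this list was at 0 in any library. MBP, the myelin basic protein of that list, ranged from 2600 to 16040 CPM over the libraries. TTR, a marker of the choroid plexus, ranged from 1.67 to 1395 CPM, and its part in the results was not tested. BDL replicate 2 had the lowest mean of all 22 animals both for these markers and for the markers of astrocytes and Bergmann glia. In bulk tissue, fewer cells of a type and less RNA per cell cannot be told apart.

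FADS2, on chromosome 2 at 9633941 to 9666666 (Sscrofa11.1), encodes the desaturase of the first, rate-limiting step from the essential fatty acids. Its lowest, median and highest levels were 254.2, 307.6 and 341.1 CPM in BDL animals, against 263.2, 285.1 and 336.8 CPM in SHAM animals. The groups overlapped over most of their range. The mean was 305.0 ± 25.6 CPM in BDL and 293.1 ± 20.4 CPM in SHAM animals (SD, n = 11 each). The log2 fold change was 0.06 ± 0.05 (SE; adjusted p = 0.883, edgeR's quasi-likelihood test). The 95% interval of the fold change ran from 0.968 to 1.12. The gene overlaps 2 annotated long non-coding RNA genes, whose reads cannot be told apart from its own if the counting ignored strand.

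FADS1, which lies near FADS2 on chromosome 2 (9735425 to 9747405), encodes the desaturase of the later step that yields arachidonic acid. It had 98.7, 116.0 and 140.7 CPM (lowest, median and highest) in BDL animals, against 98.4, 124.9 and 132.0 CPM in SHAM animals. Both groups spanned nearly the same range. The log2 fold change was -0.02 ± 0.06, with a 95% interval of the fold change from 0.903 to 1.08 (adjusted p = 0.967, edgeR). FADS6 (chromosome 12, 6353716 to 6368987) is placed in the desaturase family by its sequence. It had 45.4, 58.0 and 74.7 CPM in BDL animals, against 49.6, 56.9 and 68.9 CPM in SHAM animals, and the BDL animals held both the lowest and the highest value. Its log2 fold change was -0.03 ± 0.07 (fold 0.881 to 1.09 at 95% confidence; adjusted p = 0.956, edgeR).

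ELOVL5 (chromosome 7, 46860768 to 46932945) lengthens the polyunsaturated products of the first desaturation. Its lowest, median and highest levels were 50.5, 68.2 and 89.6 CPM in BDL animals, against 58.6, 65.9 and 82.5 CPM in SHAM animals. BDL values averaged 67.5 ± 13.4 CPM and SHAM values 67.2 ± 8.02 CPM (SD, n = 11 each), and the BDL values reached further at both ends. ELOVL2 (chromosome 7, 7651707 to 7732353) lengthens the longer polyunsaturated chains on the way to DHA. It had 56.7, 83.1 and 96.1 CPM in BDL animals, against 73.1, 88.1 and 97.9 CPM in SHAM animals. The lowest value belonged to BDL replicate 2, and 3 of 11 BDL animals lay above the SHAM mean. The log2 fold change of ELOVL2 was -0.09 ± 0.07 with all animals (adjusted p = 0.881, edgeR) and -0.05 without BDL replicate 2. ELOVL4 (chromosome 1, 86163845 to 86196036) makes the very long chains found in the retina and brain, and in people its mutations can cause a spinocerebellar ataxia. It had 60.4, 67.2 and 75.2 CPM in BDL animals, against 63.4, 68.4 and 76.6 CPM in SHAM animals. Its log2 fold change of -0.03 ± 0.04 had a 95% interval of the fold from 0.922 to 1.04, the narrowest of the 10 genes.

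ELOVL1 (chromosome 6, 167881357 to 167886125) lengthens saturated and monounsaturated chains for sphingolipids. It had 47.8, 70.5 and 99.0 CPM in BDL animals, against 36.1, 59.1 and 97.4 CPM in SHAM animals. Both groups were widely spread, and 6 of 11 BDL animals lay above the SHAM mean. The mean was 72.0 ± 18.6 CPM in BDL and 61.0 ± 17.2 CPM in SHAM animals (SD, n = 11 each). This was the highest fold change of the 10 genes, at 1.17 with a 95% interval from 0.930 to 1.47 (adjusted p = 0.881, edgeR). ELOVL7 (chromosome 16, 39588122 to 39680273), an elongase of long saturated chains, had 18.0, 49.4 and 89.7 CPM in BDL animals, against 26.7, 47.8 and 65.7 CPM in SHAM animals. The BDL group held both the lowest animal, replicate 2, and the highest, replicate 5. Its fold change was 1.13, with the widest 95% interval of the 10 genes, from 0.821 to 1.56 (adjusted p = 0.924, edgeR). The log2 fold change was 0.18 ± 0.22 with all animals, 0.27 without BDL replicate 2 and 0.05 without BDL replicate 5. ELOVL6 (chromosome 8, 112038670 to 112190079) takes palmitic to stearic acid, and it overlaps 1 annotated long non-coding RNA gene. It had 57.8, 71.8 and 89.2 CPM in BDL animals, against 62.0, 70.2 and 79.7 CPM in SHAM animals, with a log2 fold change of 0.02 ± 0.07.

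MFSD2A (chromosome 6, 95738961 to 95753245) encodes the carrier by which endothelial cells of the blood-brain barrier take up DHA bound to lysophosphatidylcholine. Its lowest, median and highest levels were 9.69, 15.2 and 20.1 CPM in BDL animals, against 10.4, 13.8 and 19.3 CPM in SHAM animals. The ranges overlapped, with 8 of 11 BDL animals above the SHAM mean. The fold change was 1.07, with a 95% interval from 0.907 to 1.26 (adjusted p = 0.918, edgeR). With 149 to 358 counts per library this was the gene with the fewest counts, and counting alone gave an error of 6.36% at its median count.

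**Figure D1:**
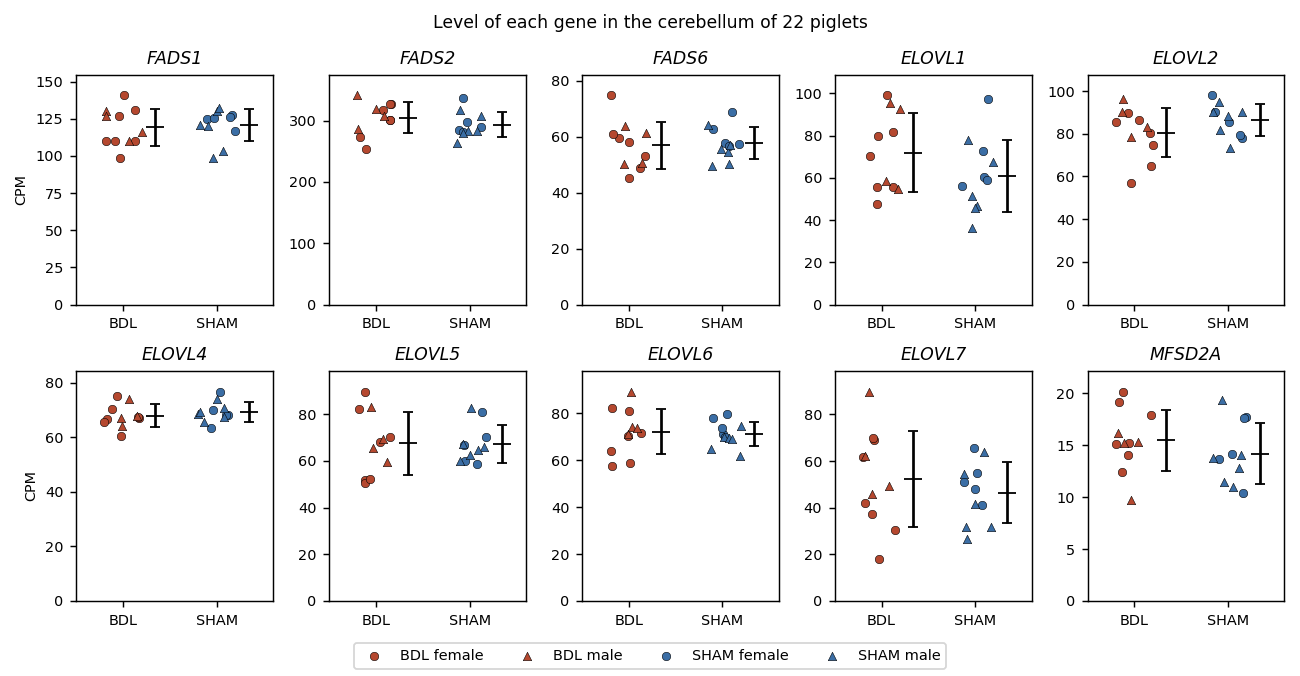
Level of each gene in CPM, from 0, in each of 22 piglets, BDL at the left of each panel and SHAM at the right, females as circles and males as triangles. The bar beside each group is its mean ± SD, and the points of both groups overlap in all 10 panels.

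Across the 10 genes, 0 passed the test of BDL against SHAM at an adjusted p under 0.05 (edgeR), as did 0% of the 14994 genes tested. At an unadjusted p under 0.05 the count was 0 of 10, against 4.96% of all genes. DESeq2 called 1 gene (0.00667%) and limma-voom 0 (0%) of the 14994, and neither called any of the 10. The median log2 fold change of the 10 genes was 0.02, and 6 of 10 were above 0, as were 50.3% of all genes. BDL and SHAM values overlapped for all 10 genes, and 0% of all genes had groups that did not overlap. A change of a given size can be bounded for most of them. The 95% interval lay inside a 1.25-fold change in either direction for FADS1, FADS2, FADS6, ELOVL2, ELOVL4, ELOVL5 and ELOVL6, 7 of 10 genes against 63.6% of all genes. It lay inside 1.5-fold for ELOVL1 and MFSD2A as well, 9 of 10 genes against 87.1% of all genes, and reached past 1.5-fold for ELOVL7. These intervals are for each gene alone, without adjustment for the number of genes.

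**Figure D2:**
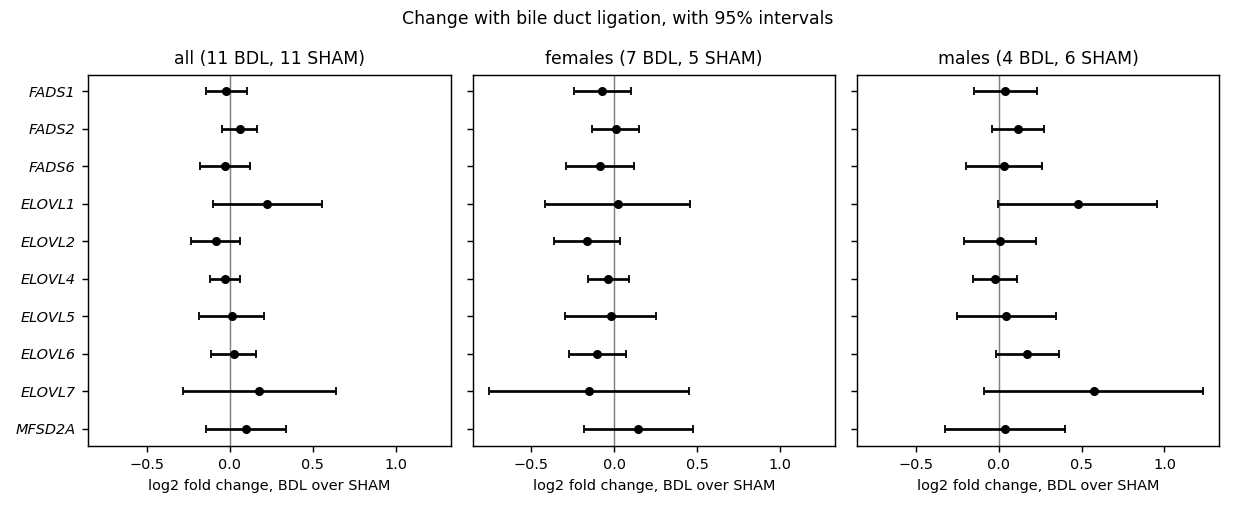
Log2 fold change of BDL over SHAM for each gene with its 95% interval (edgeR), over both sexes, within females and within males. The effects within each sex come from the model of sex and treatment groups, fitted to all animals together. The intervals span 0 for all 10 genes in each panel, and the widest are those of ELOVL7.

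The genes differed in how much the animals of a group varied. The biological coefficient of variation, the spread between animals beyond counting error after sex and treatment were fitted, was 35.7% for ELOVL7 and 25.6% for ELOVL1. The median of all genes tested was 13.3%, and ELOVL7 stood at percentile 94.7 of all genes and 99.3 among genes of like level. ELOVL1 stood at percentile 98.3 among genes of like level. The polyunsaturated elongases spread less than ELOVL7 and ELOVL1, with 15.5% for ELOVL5 and 11.8% for ELOVL2. Among genes of like level, though, ELOVL5 and ELOVL2 stood at percentiles 91.7 and 76.1. The desaturases had 8.91% (FADS2), 10.3% (FADS1) and 12.02% (FADS6). Their percentiles among genes of like level were 35.5, 60.4 and 77.2. ELOVL4 was the steadiest, at 7.30% and percentile 2.87 of all genes, and percentile 7.94 among genes of like level. For MFSD2A the value was 18.3%, at percentile 70.9 among genes of like level. ELOVL6 stood at percentile 34.6 of all genes and 66.8 among genes of like level. Counting error at the median count was 1.37% to 6.36% over the 10 genes, below the biological spread of every one.

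In males, ELOVL1, ELOVL6 and ELOVL7 were on the higher side in BDL animals, while in females their fold changes lay on both sides of 0 (ELOVL1 above, ELOVL6 and ELOVL7 below). The 4 BDL males had 54.9, 58.7, 92.7 and 95.4 CPM of ELOVL1, while the 6 SHAM males had 36.1, 49.1 and 77.8 CPM as lowest, median and highest. ELOVL7 was at 45.9, 49.4, 62.4 and 89.7 CPM in the 4 BDL males, against 26.7, 36.6 and 63.7 CPM (lowest, median, highest) in the SHAM males. For ELOVL6 the 4 BDL males had 71.2, 73.8, 74.3 and 89.2 CPM, and the SHAM males 62.0, 69.4 and 74.6 CPM. For each of these genes 4 of 4 BDL males lay above the SHAM male mean, but the ranges overlapped. The share of all genes with such a count was not computed. These genes also varied together over all animals, with r of 0.59 to 0.85 between them, so their counts are not independent. The log2 fold changes in males were 0.48 ± 0.23 for ELOVL1 (unadjusted p = 0.0517), 0.57 ± 0.32 for ELOVL7 (p = 0.0852) and 0.17 ± 0.09 for ELOVL6 (p = 0.0702), each with an adjusted p of 0.9999 in edgeR's test across all genes. Without BDL replicate 5 they were 0.34 for ELOVL1, 0.33 for ELOVL7 and 0.09 for ELOVL6. Within males 0 of 10 genes passed, as did 0% of all genes, and 9 of 10 were above 0, against 47.5% of all genes. At an unadjusted p under 0.05 it was 0 of 10 in males and 0 of 10 in females, against 4.08% and 5.83% of all genes in the edgeR fits. DESeq2 called 1 gene of the 14994 (0.00667%) within males, and limma-voom called 0 (0%).

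In females the same genes did not share a direction. ELOVL7 had 18.0, 42.1 and 69.8 CPM (lowest, median, highest) in the 7 BDL females and 41.1, 47.8, 51.0, 54.9 and 65.7 CPM in the 5 SHAM females. Its log2 fold change in females was -0.15 ± 0.29, and -0.01 without BDL replicate 2. The log2 fold change was 0.02 ± 0.21 for ELOVL1 and -0.10 ± 0.08 for ELOVL6. Within females 0 of 10 genes passed, as did 0% of all genes in edgeR, limma-voom and DESeq2, and 3 of 10 were above 0, against 50.5% of all genes.

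The difference between the sexes was tested itself. The effect of BDL in females minus that in males was -0.28 ± 0.12 on the log2 scale for ELOVL6 (unadjusted p = 0.0358, adjusted p = 0.917, edgeR), the only one of the 10 genes under an unadjusted 0.05, against 4.6% of all genes. It was -0.72 ± 0.43 for ELOVL7 and -0.46 ± 0.31 for ELOVL1. The difference was below 0 for 9 of 10 genes, while 51.5% of all genes were above 0. Several of the 10 genes varied together across animals, so this count, like those within each sex, is not one of independent genes. No gene of the 10 passed at an adjusted p under 0.05, as was so for 0% of all genes in edgeR, and limma-voom and DESeq2 called 0 genes. The mature oligodendrocyte marker mean moved with this pattern: it was 8.09 ± 0.66 in BDL and 8.33 ± 0.32 in SHAM females (SD, n = 7 and 5), and 8.62 ± 0.40 in BDL and 7.998 ± 0.493 in SHAM males (n = 4 and 6). All 10 measured markers of the list had a difference below 0, with a median of -0.79. Other marker lists were mixed. The difference was above and below 0 for 4 and 5 astrocyte and Bergmann glia markers and for 4 and 3 endothelial cell markers. The counts were 2 and 2 for blood cell, 3 and 7 for granule neuron and 2 and 7 for Purkinje cell markers. In 4 further lists all measured markers shared a direction, though not the same direction in each list. The difference was below 0 for 9 of 9 microglia and macrophage markers (median -0.44) and 8 of 8 oligodendrocyte precursor markers (median -0.22), and above 0 for 4 of 4 choroid plexus and ependyma markers (median 2.91) and 6 of 6 meninges and fibroblast markers (median 0.19). None of these markers passed (smallest adjusted p = 0.917, edgeR), and the part of these 4 lists in the result was not tested. With the oligodendrocyte marker mean added to the model, an alternative chosen after the data had been seen, the difference was -0.01 for ELOVL7, 0.10 for ELOVL1 and -0.10 for ELOVL6. Within males the log2 fold change of ELOVL7 was then -0.02 and that of ELOVL1 was 0.07. Over both sexes together the fold change on the log2 scale was -0.02 for ELOVL7 and 0.12 for ELOVL1 with the marker mean in the model. Across the 22 animals the marker mean had r = 0.97 with ELOVL7 and 0.86 with ELOVL1. Such a covariate takes up most of a gene's variation whatever its source, so these fits cannot test a cause.

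The level of several of the genes followed a marker list from animal to animal. Each of the 10 genes was set against 4 lists, mature oligodendrocyte (10 measured markers), astrocyte and Bergmann glia (9), granule neuron (10) and endothelial cell (7), over the 22 animals. Of these 40 relations, 11 passed a two-sided permutation test of Pearson's r with 100000 resamples at an adjusted p under 0.05, all of them positive. These 11 passed by Spearman's rho as well, and 2 others passed by rho alone, FADS2 with the astrocyte and Bergmann glia markers and MFSD2A with the mature oligodendrocyte markers. FADS1, ELOVL5, ELOVL6 and ELOVL7 passed by r with both the mature oligodendrocyte and the astrocyte and Bergmann glia lists. The correlation between the list means was not computed, so these are not shown to be separate relations. None of the 10 genes is in a marker list. The share of all tested genes that pass with these lists was not computed. The count of 11 is therefore not shown to be particular to the 10 genes.

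ELOVL7 followed the mature oligodendrocyte markers most closely, with r = 0.97 and rho = 0.94 (p = 1e-05 for each, the smallest the resamples can give; permutation adjusted p = 0.000133 and 0.0002). The correlation was 0.97 within BDL and 0.97 within SHAM animals, and 0.94 without the 2 animals farthest from the median of the marker mean. The lowest animal of the marker list, BDL replicate 2, was the lowest of ELOVL7, and the highest, BDL replicate 5, was the highest. ELOVL1 came next, with r = 0.86 and rho = 0.89 (p = 1e-05 for each, permutation adjusted p = 0.000133 and 0.0002), 0.87 within BDL, 0.92 within SHAM and 0.87 without the 2 farthest animals. For ELOVL6 r was 0.77 and rho 0.75 (permutation p = 2e-05 and 0.0001, adjusted p = 0.0002 and 0.00133), with 0.82 within BDL, 0.68 within SHAM and 0.77 without the 2 farthest. The within-SHAM value of ELOVL6 did not pass by itself (permutation adjusted p = 0.136). ELOVL5 (r = 0.66, rho = 0.51; permutation p = 0.00083 and 0.0149, adjusted p = 0.00415 and 0.0459) and FADS1 (r = 0.61, rho = 0.59; permutation p = 0.00255 and 0.00435, adjusted p = 0.0113 and 0.0174) were weaker. Within BDL and within SHAM animals r was 0.69 and 0.61 for ELOVL5 and 0.56 and 0.74 for FADS1, and none of these passed by itself. FADS1 did not pass without the 2 farthest animals (r = 0.52, permutation adjusted p = 0.0729), while ELOVL5 had 0.58 (permutation adjusted p = 0.0440).

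With the astrocyte and Bergmann glia markers, ELOVL2 had the highest correlation (r = 0.85, rho = 0.66; permutation p = 1e-05 and 0.00111, adjusted p = 0.000133 and 0.0074). It was 0.89 within BDL, 0.74 within SHAM and 0.64 without the 2 farthest animals, and the value within SHAM did not pass by itself (permutation adjusted p = 0.0674). ELOVL5 had r = 0.71 and rho = 0.71 (permutation p = 0.00022 and 0.00036, adjusted p = 0.00176 and 0.00304), 0.76 within BDL, 0.60 within SHAM and 0.56 without the 2 farthest. Within SHAM it did not pass by itself (permutation adjusted p = 0.201). FADS1 had r = 0.60 and rho = 0.70 (permutation p = 0.00292 and 0.00038, adjusted p = 0.0117 and 0.00304), with 0.65 within BDL, 0.52 within SHAM and 0.63 without the 2 farthest. Neither of its values within a group passed by itself (permutation adjusted p = 0.112 in BDL and 0.267 in SHAM). ELOVL6 (r = 0.69, rho = 0.63; permutation p = 0.00039 and 0.0023, adjusted p = 0.0026 and 0.0102) and ELOVL7 (r = 0.58, rho = 0.53; permutation p = 0.00469 and 0.0117, adjusted p = 0.0171 and 0.0390) did not pass without the 2 farthest animals, at r = 0.45 and 0.37 (permutation adjusted p = 0.141 and 0.255). Within BDL and within SHAM animals r was 0.81 and 0.45 for ELOVL6 and 0.63 and 0.57 for ELOVL7, of which the first passed (permutation adjusted p = 0.0187).

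MFSD2A, the only gene of the 10 to pass with the endothelial cell markers, had r = 0.68 and rho = 0.63 (permutation p = 0.00061 and 0.00212, adjusted p = 0.00349 and 0.0102), 0.79 within BDL, 0.57 within SHAM and 0.55 without the 2 farthest animals. Within SHAM it did not pass by itself (permutation adjusted p = 0.2035). BDL animals had an endothelial marker mean of 4.74 ± 0.20 and SHAM animals one of 4.74 ± 0.17 (log2 CPM ± SD, n = 11 each). The rank correlation of MFSD2A with the mature oligodendrocyte markers was of the same size (r = 0.50, rho = 0.63; permutation p = 0.0179 and 0.0021, adjusted p = 0.0551 and 0.0102), with r = 0.45 within BDL, 0.55 within SHAM and 0.62 without the 2 farthest animals (permutation adjusted p = 0.0279). Neither of these values within a group passed (permutation adjusted p = 0.344 in BDL and 0.237 in SHAM). No gene of the 10 passed with the granule neuron markers, where r ran from -0.39 for MFSD2A to 0.30 for ELOVL4. FADS6 and ELOVL4 passed with none of the 4 lists by r or by rho over all animals. FADS2 passed with the astrocyte and Bergmann glia markers by rank only (r = 0.50, rho = 0.55; permutation p = 0.0167 and 0.0088, adjusted p = 0.0551 and 0.0320), with r = 0.57 within BDL, 0.59 within SHAM and 0.55 without the 2 farthest animals (permutation adjusted p = 0.0486). Its values within BDL and within SHAM did not pass (permutation adjusted p = 0.189 and 0.2035). Within the 11 SHAM animals alone FADS2 had r = 0.86 with the mature oligodendrocyte markers (permutation adjusted p = 0.00667), against 0.11 within the 11 BDL animals (permutation adjusted p = 0.823). The difference between these correlations was not tested.

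**Figure D3:**
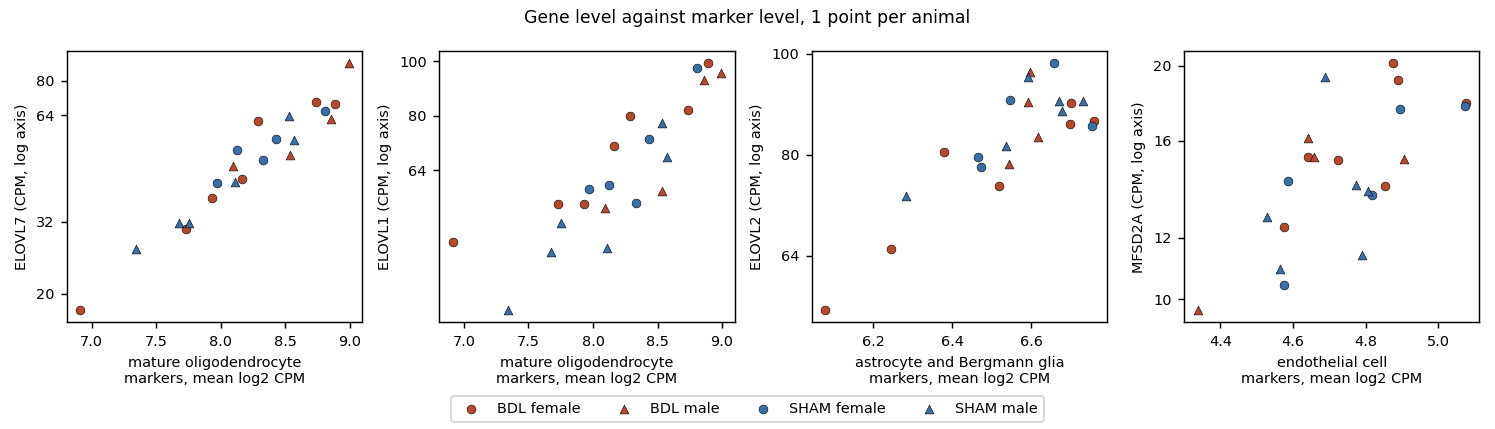
CPM of ELOVL7 and ELOVL1 against the mature oligodendrocyte marker mean, of ELOVL2 against the astrocyte and Bergmann glia mean and of MFSD2A against the endothelial cell mean (log2 CPM), 1 point per animal and log vertical axes. The points rise together in each panel, most tightly for ELOVL7 (r = 0.97), and BDL replicate 2 is the lowest point for ELOVL7 and for ELOVL2.

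Among the 45 pairs of the 10 genes, 14 passed at an adjusted p under 0.05 (two-sided permutation test over 22 animals), all with a positive r, and 32 of 45 had r above 0. The share of pairs among all tested genes that pass or have r above 0 was not computed. ELOVL2 with ELOVL7 (rho = 0.40, permutation adjusted p = 0.165) and ELOVL1 with ELOVL5 (rho = 0.50, permutation adjusted p = 0.0593) did not pass by rho. ELOVL7 and MFSD2A passed by rho alone (r = 0.50, rho = 0.67; permutation adjusted p = 0.0539 and 0.0066). ELOVL1 and ELOVL7 were closest, at r = 0.85 and rho = 0.91 (p = 1e-05 for each, the smallest the resamples can give, permutation adjusted p = 0.00045 for each), with 0.87 within BDL and 0.92 within SHAM animals. ELOVL6 and ELOVL7 followed at r = 0.81 and rho = 0.76 (permutation p = 2e-05 and 5e-05, adjusted p = 0.00045 and 0.00105), with 0.85 within BDL and 0.68 within SHAM animals. The latter did not pass by itself (permutation adjusted p = 0.0943). ELOVL5 and ELOVL6 had r = 0.74 and rho = 0.59 (permutation p = 6e-05 and 0.00415, adjusted p = 0.0009 and 0.0187). That r was 0.92 within BDL animals and 0.17 within SHAM animals, where it did not pass (permutation adjusted p = 0.726). FADS1 and ELOVL5, which act in successive steps, had r = 0.73 and rho = 0.76 (permutation p = 0.00014 and 7e-05, adjusted p = 0.00105 for each), with 0.84 within BDL and 0.56 within SHAM animals. The latter did not pass by itself (permutation adjusted p = 0.134). FADS2 was in none of the 14 pairs that passed over all animals, and its r with FADS1 was 0.27. Within SHAM animals it passed with ELOVL1 (r = 0.92), ELOVL7 (0.86) and ELOVL5 (0.84; permutation adjusted p = 0.00338, 0.0057 and 0.0233), where the BDL values were -0.22, -0.02 and 0.02 and did not pass. FADS2 and ELOVL1 also passed without the 2 animals farthest from the median of the first gene (r = 0.60, permutation adjusted p = 0.0255), as did 11 pairs in all. Over all animals FADS6 passed only with ELOVL4, at r = 0.59 and rho = 0.55 (permutation p = 0.00363 and 0.00955, adjusted p = 0.0161 and 0.0331), which was 0.78 within BDL, 0.27 within SHAM and 0.50 without the 2 farthest animals (permutation adjusted p = 0.557 and 0.0761 for the last 2). FADS1 and FADS6 passed with a negative r of -0.82 within BDL animals (permutation adjusted p = 0.0138), against 0.71 within SHAM animals (permutation adjusted p = 0.0825). Differences between the groups' correlations were not tested. After the oligodendrocyte marker mean was removed from each gene, 0 pairs passed. The r of ELOVL1 and ELOVL7 was then 0.16, that of ELOVL2 and ELOVL6 was 0.62 (permutation adjusted p = 0.0779), and that of FADS6 and ELOVL4 was 0.60 (permutation adjusted p = 0.0779).

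**Figure D4:**
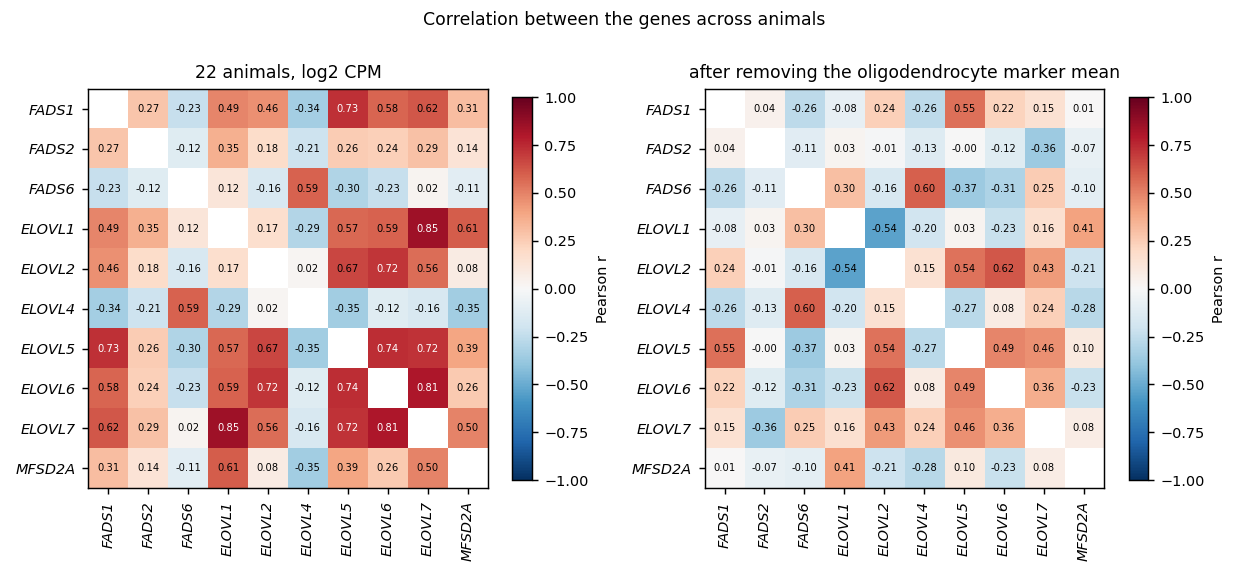
Pearson r of log2 CPM between each pair of the 10 genes over 22 animals, as measured at the left and after removing the oligodendrocyte marker mean at the right. ELOVL1 and ELOVL7 have r = 0.85 at the left and 0.16 at the right, while FADS6 and ELOVL4 have 0.59 and 0.60.

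The 2 genes most like each member were taken from 12307 other genes with a symbol by the Pearson r of log2 CPM residuals after sex and treatment, over 22 animals, as a description. For ELOVL7 they were UGT8 (r = 0.98), which makes the myelin lipid galactosylceramide, and MBP (0.97), myelin basic protein, both of them in the oligodendrocyte marker list. For ELOVL1 they were SIRT2 (0.95) and GAL3ST1 (0.95), the sulfotransferase that makes sulfatide. ELOVL6 was nearest to PRRG1 (0.92) and SECISBP2L (0.90). ELOVL5 was nearest to SCD (0.86), the stearoyl-CoA desaturase, and SPTLC2 (0.85), a subunit of the enzyme that starts sphingolipid synthesis. For FADS1 they were SQLE (0.84), squalene epoxidase of cholesterol synthesis, and PCCB (0.83), a subunit of propionyl-CoA carboxylase. ELOVL2 lay nearest to APP (0.92), the amyloid precursor protein, and LSAMP (0.90), a cell adhesion protein. MFSD2A was nearest to ACE (0.84), angiotensin-converting enzyme, and PLAT (0.84), tissue plasminogen activator. FADS6 was nearest to SYN2 (0.84), a synaptic vesicle protein, and DNAJC4 (0.83), and FADS2 to ZNF853 and MGAT1 (0.80 each). The nearest genes were least close for ELOVL4 (RSPRY1 0.72 and EPS8 0.71).

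The other genes of the pathway showed no call either: in each of 5 lists, 0 genes rose and 0 fell at an adjusted p under 0.05 (edgeR), as did 0% of all genes. Of 11 other desaturases and enzymes of the elongation cycle, 5 were on the higher and 6 on the lower side, with a median log2 fold change of 0.00, and 1 had an unadjusted p under 0.05. That was FADS3, a further desaturase of the FADS cluster, at 0.18 ± 0.08 (p = 0.0213, adjusted p = 0.881, edgeR). CYB5R3, which feeds electrons to the desaturases, had 0.10 ± 0.06, HACD1, a dehydratase of the cycle, -0.13 ± 0.09 and SCD5, a stearoyl-CoA desaturase, 0.07 ± 0.06. Of 8 genes of peroxisomal chain shortening, the last stage of DHA synthesis, 2 were on the higher and 6 on the lower side, with a median of -0.04. HSD17B4, the bifunctional enzyme of the pathway, had -0.12 ± 0.05 (p = 0.0356, adjusted p = 0.881, edgeR). The peroxisomal transporters ABCD2 and ABCD3 had -0.23 ± 0.13 and -0.07 ± 0.04.

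Of 13 genes for activation, binding and uptake of fatty acids, 4 were on the higher and 9 on the lower side, with a median of -0.02. FABP7, the brain fatty acid-binding protein, had 0.12 ± 0.06. ACSL6, which activates DHA in the brain, had -0.08 ± 0.05, ACSL4 -0.05 ± 0.05 and LPL, lipoprotein lipase, -0.52 ± 0.38. Of 11 genes that put fatty acids into phospholipids or release them, 8 were on the higher and 3 on the lower side, with a median of 0.02. AGPAT4 had 0.13 ± 0.08 and PLA2G6, a phospholipase, 0.08 ± 0.07, while the acyltransferases LPCAT3 and LPCAT1 had -0.06 ± 0.07 and 0.04 ± 0.05. Of 15 genes of transcriptional control, 11 were on the higher and 4 on the lower side, with a median of 0.06. RXRB and RXRA, the partner receptors of the PPAR and LXR factors, had 0.12 ± 0.05 (p = 0.0195) and 0.15 ± 0.07 (p = 0.0396), each with an adjusted p of 0.881 in edgeR. MLXIPL, a glucose-responsive factor, had 0.17 ± 0.08, and SCAP, which escorts the SREBP factors, 0.06 ± 0.04.

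Sex and body weight gave no call among the 10 genes. Between females and males 0 of 10 passed, against 0.06% of all genes (9 genes, edgeR), and 0 of 10 had an unadjusted p under 0.05, against 5.95% of all genes. limma-voom called 10 genes (0.0667%) and DESeq2 called 23 (0.153%), none of them among the 10. Of the 10 genes 4 were higher in females, against 49.6% of all genes. MFSD2A had the largest difference, with 15.6 ± 2.91 CPM in 12 females and 13.9 ± 2.82 CPM in 10 males (SD), a log2 fold change of females over males of 0.16 ± 0.12 (adjusted p = 0.913, edgeR), and 0.09 without BDL replicate 7. The labels give body weight without a unit, from 1620 to 2540 in BDL and from 1660 to 2560 in SHAM animals. Per standard deviation of weight 0 of 10 genes passed, against 0% of all genes (edgeR), and at an unadjusted p under 0.05 it was 0 of 10 against 7.39%. DESeq2 called 8 genes (0.0534%) and limma-voom 0 (0%) for body weight, none of them among the 10. ELOVL2 had the smallest p, with a log2 change of 0.08 ± 0.04 per standard deviation (p = 0.0521, adjusted p = 0.681, edgeR).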

How the data were processed

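Cerebellar RNA of 22 piglets was sequenced as read pairs. The authors deposited 1 table for each animal, with raw counts of reads for each Ensembl gene and no normalization. Per the submitters' processing notes, Trim Galore, HISAT2, HTSeq and DESeq2 were used with build Sscrofa11.1. No version and no strand setting is stated there. Lines that name no gene held 29.9% to 34.6% of each table's counts and were left out.

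The members and gene lists were chosen with earlier results of these data known. Symbols matched 15029 of 31907 identifiers. Positions were looked up by symbol in RefSeq genes on Sscrofa11.1.

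Genes were kept by filterByExpr (minimum count 10, minimum total 15). The main test was edgeR 4.0.16 (R 4.3.3), a robust quasi-likelihood fit with TMM scaling on sex and treatment, with Benjamini-Hochberg adjustment over all 14994 genes. A 4-group model gave the effects within each sex and their difference, and body weight was added for its association. Changes are log2 fold changes with standard errors, and intervals have 95% confidence. The quasi-likelihood test gives no standard error. Each was derived from the log2 fold change and the F statistic of its edgeR test, and the intervals rest on it. CPM for correlations is on the log2 scale with a prior count of 2. Correlations used permutations in Python 3.11.15 with NumPy 2.4.6, and the adjustment is over the 40 relations or the 45 pairs. The fits and correlations were tested on simulated data. Alternatives were limma 3.58.1 (voom), DESeq2 1.42.0, other scalings, filters and covariates, and leaving out each animal.

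Named genes are all 10 members, up to 4 genes with the smallest p in each pathway list, the first markers of the marker lists used, and the 2 most alike genes of each member. A gene within this rule is not reported here. Over the 231 pairs of libraries, chi-square per degree of freedom was 6.82 to 48.1, so no library looked deposited more than once. Replicate numbers follow deposition order. Counting error and the spread between animals set the precision, and litters are not recorded in the labels.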

Additional observations from a re-analysis of the deposited data

Results flagged for a closer look

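In 40 groups of 4 to 7 animals, 1 for each gene, sex and treatment, 5 had an animal that stood apart from the others by Dixon's test, where chance alone gives about 1 in 20. ELOVL6 was at 89.2 CPM in BDL replicate 5, the highest of the 4 BDL males, with the next at 74.3 CPM. MFSD2A was at 9.69 CPM in BDL replicate 7, the lowest of the 4 BDL males, with the next at 15.2 CPM. MFSD2A was at 19.3 CPM in SHAM replicate 9, the highest of the 6 SHAM males, with the next at 14.0 CPM. ELOVL5 was at 82.5 CPM in that same animal, with the next SHAM male at 67.1 CPM. FADS1 was at 117.1 CPM in SHAM replicate 7, the lowest of the 5 SHAM females, with the next at 124.9 CPM. BDL replicate 5 also had the highest mature oligodendrocyte marker mean of all 22 animals (8.99), and BDL replicate 7 the lowest endothelial marker mean (4.34). The part of these marker levels in the values was not tested.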

How the results depend on the processing

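Under every alternative tried, scalings, filters, tools, covariates and leaving out each animal in turn, 0 of the 10 genes passed in any comparison. No scaling moved the median of all genes by 0.01 on the log2 scale. Counts over all genes tested did move, where the set tested also changed with the filter and with each animal left out. DESeq2 called 1 gene in BDL against SHAM, 1 within males, 8 for body weight and 23 between females and males, where edgeR called 0, 0, 0 and 9. Without the count filter 31 genes differed between females and males. Leaving out 1 animal, the female against male count ran from 7 (without BDL replicate 7) to 26 (without BDL replicate 2), and the body weight count from 0 to 9 (without SHAM replicate 1). The cause was not tested. No paired analysis was possible because the labels name no pairs or litters, and replicate numbers only follow deposition order.

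These log2 changes, none of them past the threshold, changed sign. For BDL against SHAM, ELOVL5 was -0.0044 with limma-voom. With the oligodendrocyte marker mean as a covariate it was -0.041, ELOVL6 -0.016 and ELOVL7 -0.024 (0.18 without it). In that fit, within males, FADS1 was -0.064, ELOVL2 -0.091, ELOVL4 0.0028, ELOVL5 -0.16, ELOVL7 -0.021 (0.57 without the covariate) and MFSD2A -0.19. ELOVL5 was 0.043 within females. The difference of the effect between sexes was then 0.031 for FADS1, 0.098 for ELOVL1 (-0.46 without it) and 0.199 for ELOVL5. Females over males gave 0.0053 for ELOVL6 and 0.043 for ELOVL7. With this covariate 1 gene of all passed for body weight. The fits of the covariate other than BDL against SHAM over both sexes were added after seeing the data.

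Leaving out 1 animal at a time, these values spanned 0. For BDL against SHAM, ELOVL5 ran from -0.034 to 0.054 and ELOVL6 from -0.023 to 0.051. Within females ELOVL1 ran from -0.080 to 0.18, ELOVL4 from -0.067 to 0.0038, ELOVL5 from -0.10 to 0.056 and FADS2 from -0.013 to 0.058. Within males ELOVL2 ran from -0.047 to 0.055, ELOVL4 from -0.068 to 0.0029, ELOVL5 from -0.053 to 0.11, FADS1 from -0.011 to 0.082, FADS6 from -0.031 to 0.082 and MFSD2A from -0.037 to 0.18. The difference between sexes ran from -0.047 to 0.032 for ELOVL4, from -0.16 to 0.032 for ELOVL5 and from -0.034 to 0.18 for MFSD2A. Females over males, ELOVL4 ran from -0.025 to 0.013, ELOVL5 from -0.069 to 0.018, ELOVL6 from -0.030 to 0.038, ELOVL7 from -0.098 to 0.11, FADS1 from -0.0017 to 0.050 and FADS2 from -0.035 to 0.016. For body weight ELOVL1 ran from -0.073 to 0.010, ELOVL4 from -0.011 to 0.011, ELOVL6 from -0.0070 to 0.048, ELOVL7 from -0.057 to 0.085 and FADS1 from -0.045 to 0.00062.

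Of the 40 relations with marker lists, 7 passed within BDL and 3 within SHAM animals, each with 11 animals in place of 22, against 11 over all animals. The count was 10 without the 2 farthest animals. Of the 45 pairs of genes, 11 passed within BDL and 6 within SHAM animals, and 0 passed after the oligodendrocyte marker mean was removed, where ELOVL1 with ELOVL6 had r = -0.23. The alternatives for pairs were added after seeing the data. MFSD2A, with the fewest counts, is the gene whose values counting error limits most.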
